A study of Mus musculus with 6 samples.

Results

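The Clec genes, named for the C-type lectin domain, were measured on arrays of mouse bone marrow stem and progenitor cells with and without p65. Members were the genes whose symbol starts with Clec followed by a digit and whose array row carries that symbol alone. This gave 34 rows for 33 genes of the 19938 genes compared, and Clec4g, the only member with 2 rows, was represented by the brighter one. There were 3 samples labelled p65 wild-type (replicates 1 to 3) and 3 labelled p65 knockout (replicates 1 to 3), with 1 array per sample. The titles do not say whether a sample was 1 mouse or a pool. All 6 samples were bone marrow cells sorted as c-kit and Sca-1 positive, without lineage markers or Flk2, the fraction where blood stem cells and their first descendants are found. The series title places the deletion in the hematopoietic compartment. The Cre driver, strain, age and sex of the mice, and any allele that both groups share, are not given in the sources used here. Having 3 arrays a group limits the precision. Values are RMA signals on the log2 scale, and each difference is knockout minus wild-type.

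C-type lectin receptors of myeloid cells sense sugars, lipids and dead cells through a common protein fold, and they signal in opposing ways. Activating members either carry a short tyrosine motif of their own or pair with the adaptors DAP12 and FcRγ, which recruit the kinase Syk. Inhibitory members carry a tyrosine motif that recruits the phosphatase SHP-1. Syk signalling from these receptors reaches NF-κB, the family of transcription factors that includes p65, through Card9, Bcl10 and Malt1. Other Clec proteins are ligands of natural killer cell receptors, endocytic receptors of liver cells, or secreted proteins.

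Of the 33 Clec genes, 2 rose in knockout cells, 0 fell and 31 did not pass the test (limma, Benjamini-Hochberg adjusted p under 0.05 over all genes). Clec12a, which encodes an inhibitory receptor of granulocytes and monocytes, rose by a fitted 7.08-fold, and Clec5a, which encodes the DAP12-coupled receptor MDL-1, by a fitted 3.58-fold. Neither wild-type level is clearly above low signal, so both folds are uncertain in size. Among all genes 0.687% rose and 0.13% fell by the same rule. Beside the 0 that fell, 3 Clec genes were lower at an unadjusted limma p under 0.05 (Clec1a, Clec12b and Clec4a4) and 6 were higher (Clec12a, Clec5a, Clec4d, Clec4e, Clec10a and Clec2i). Over all genes, 13.8% were higher and 7.76% lower at that level. The median difference of the 33 genes was -0.12, where that of all genes was -0.04, and 11 differences were positive and 22 negative. Clec12b and Clec4a4 are named here after their values were seen.

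The arrays differed in ways that touch dim rows, and most Clec rows are dim. Wild-type replicate 1 had an SD over all rows of 2.03, against 2.22 to 2.29 in the other arrays, and its correlations with them (0.924 to 0.943) were the lowest. It held the highest of the 6 values for 20 of the 33 Clec genes. It also held the highest value for 66.8% of all genes at or below the median signal of all rows, and for 10.1% of those above it. Among genes at or below that median the median difference was -0.22, and among those above it 0.22. Leaving out wild-type replicate 1 moved them to -0.10 and 0.07, and the balance of the Clec genes turned to 20 positive and 13 negative, with a median of 0.05. The predominance of negative differences among Clec genes thus depended on that array, and it depended on the scaling of the arrays as well. Centring all 6 arrays on their medians adds 0.146 to every difference, which is more than the size of the Clec median of -0.12.

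Rela, which encodes p65, read 7.52, 7.89 and 7.92 in the wild-type arrays and 7.33, 7.48 and 7.35 in the knockout arrays. The groups did not overlap, the difference was -0.39 (SE 0.16), and the limma adjusted p was 0.209. Without wild-type replicate 1 the difference was -0.51 (limma adjusted p = 0.04). An exact two-sided permutation test gave 0.1, the smallest p that 3 against 3 arrays allow. Probes outside a deleted part can keep their signal, so Rela tests the labels only weakly. The table carries no detection call. The 1027 measured olfactory receptor genes, which blood progenitors are not thought to express, served as a reference for low signal, and their 95th percentile was 5.95 for wild-type means and 5.43 for knockout means. In wild-type 8 of 33 Clec genes had a mean above that percentile, and in knockout 11 did.

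On the mean of 6 arrays, 9 of the 33 Clec genes lay above the median of all rows, which was 5.79. From the brightest down they were Clec2d (9.65), Clec12a (7.39), Clec16a (6.80), Clec11a (6.54), Clec4e (6.49), Clec18a (6.41), Clec4d (5.99), Clec4f (5.95) and Clec4g (5.82). The last 3 lay close to the median, and Clec2i at 5.68 was the nearest below it. A row's signal depends on its probes as well as on transcript number, so this order is one of row signals. Clec2d, Clec16a, Clec11a, Clec4e and Clec18a were above the array's own median in all 6 arrays. Clec12a was above it in 4 of 6, the 3 knockout arrays and wild-type replicate 1. Clec4d was above it in 3, all of them knockout arrays, so its place above the median holds for knockout only. Clec4f was above it in 4 arrays and Clec4g in 3. The knockout means of Clec4f (5.789) and Clec4g (5.62) lay below the median of all rows (5.791). Their wild-type means of 6.11 and 6.01 lay above it.

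**Figure D1:**
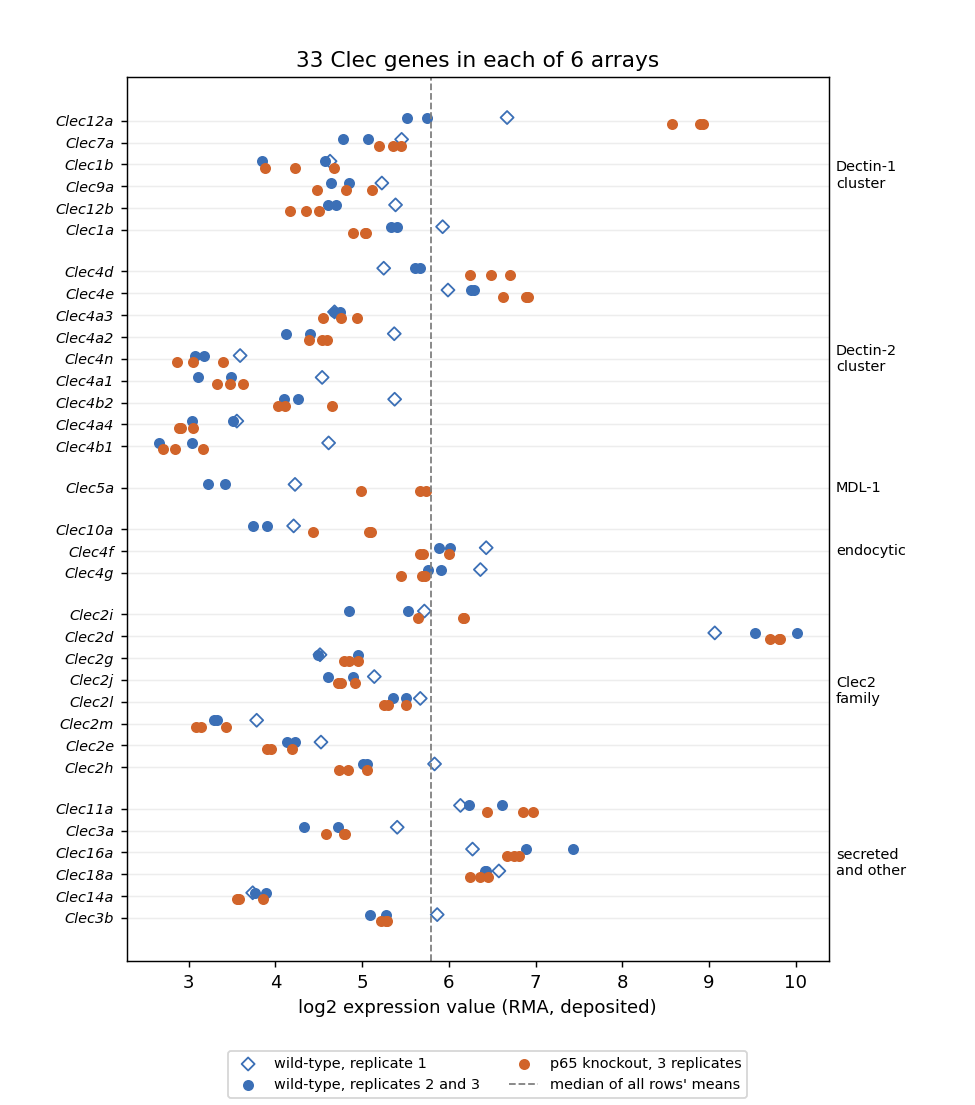
Deposited log2 expression value (horizontal axis) of each of the 33 Clec genes in 6 arrays, grouped by role. Each point is 1 array, the open diamond is wild-type replicate 1, and the dashed line marks the median of all rows at 5.79. The 3 knockout values of Clec12a lie to the right of its 3 wild-type values, and most genes lie left of the line.

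The Dectin-1 cluster encodes receptors that sit next to each other on chromosome 6. Clec12a read 6.67, 5.51 and 5.74 in wild-type replicates 1 to 3 and 8.90, 8.93 and 8.57 in knockout replicates 1 to 3. Every knockout array was higher than every wild-type array by a wide margin, and the highest wild-type value was that of replicate 1. The means were 5.98 ± 0.61 and 8.80 ± 0.20 (SD, n = 3 each). The difference was 2.82 (SE 0.29, 95% interval 2.16 to 3.48, limma adjusted p = 0.00747). The wild-type mean lay next to the 95th percentile of olfactory receptor genes (5.95), and wild-type replicate 1 lay below the percentile of its own array (6.87), so the wild-type signal is not clearly above low signal and the size of the rise is uncertain. The call was lost without wild-type replicate 3 (limma adjusted p = 0.0587), knockout replicate 1 (0.0632) or knockout replicate 2 (0.0598), while the difference stayed between 2.59 and 3.17 in all 14 alternatives.

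The other members of this cluster did not pass. Clec1a, a receptor for fungal melanin found on endothelium, had the lowest difference. It read 5.93, 5.40 and 5.34 in wild-type against 5.04, 4.89 and 5.04 in knockout. Its groups did not overlap, and the difference was -0.56 (SE 0.18, limma adjusted p = 0.153), or -0.38 without wild-type replicate 1. Clec12b, which encodes an inhibitory receptor, was similar at -0.56 (limma adjusted p = 0.204), and again the 3 knockout values lay below the 3 wild-type values. Clec7a, which encodes the β-glucan receptor Dectin-1, had a difference of 0.23 and read 4.78 to 5.46 in the wild-type arrays and 5.20 to 5.45 in the knockouts. Clec1b, the podoplanin receptor gene of platelets, differed by -0.09, and Clec9a, which encodes a receptor for actin of dead cells on dendritic cells, by -0.10. The groups overlapped for Clec7a, Clec1b and Clec9a. These 3 genes and Clec12b, named after their values were seen, lay below the median of all rows in both groups. So did Clec1a, with means of 5.56 in wild-type and 4.99 in knockout. These means of Clec1a were also below the 95th percentiles of olfactory receptor genes (5.95 and 5.43). Of the 2 tyrosine-motif inhibitory genes of the cluster, Clec12a passed and Clec12b did not. The difference of Clec12b was -0.31 without wild-type replicate 1. Its means of 4.90 in wild-type and 4.34 in knockout also lay below those percentiles, so no contrast between the 2 genes is drawn.

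Clec5a encodes MDL-1, which lies on chromosome 6 away from both clusters and signals through DAP12 in monocytes and neutrophils. It read 4.23, 3.42 and 3.23 in wild-type against 5.74, 5.67 and 4.99 in knockout. The groups did not overlap, and the means were 3.63 ± 0.53 and 5.46 ± 0.42 (SD, n = 3 each). The difference was 1.84 (SE 0.30, 95% interval 1.15 to 2.52, limma adjusted p = 0.0434). The wild-type mean was below the median of olfactory receptor genes (4.05) and the knockout mean was just above their 95th percentile (5.43), so the wild-type level is not shown to lie above background and the fold is uncertain. Leaving out any array except wild-type replicate 1 ended the call, with limma adjusted p from 0.0829 to 0.231 and differences from 1.64 to 2.08. Without wild-type replicate 1 the difference was 2.14 (limma adjusted p = 0.0108).

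**Figure D2:**
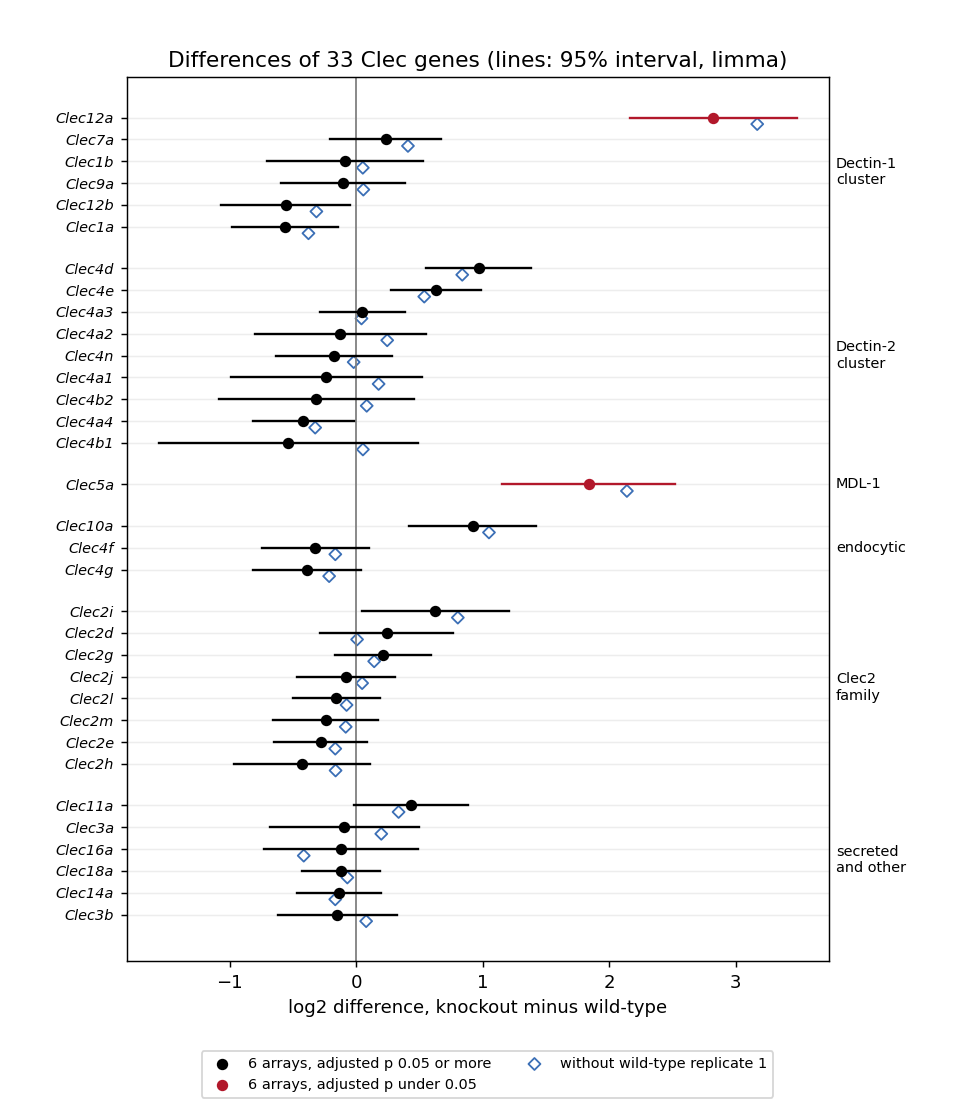
Log2 difference, knockout minus wild-type, of each of the 33 Clec genes, with its 95% interval from limma. Red marks an adjusted p under 0.05 and open diamonds give the difference without wild-type replicate 1. Clec12a at 2.82 and Clec5a at 1.84 stand to the right, and the diamonds of most dim genes are shifted toward higher values.

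The Dectin-2 cluster holds activating receptors that pair with FcRγ and the inhibitory DCIR receptors. None of its 9 genes passed. Clec4d and Clec4e, whose proteins MCL and Mincle sense mycobacterial glycolipids, had the highest differences. Clec4d read 5.25, 5.61 and 5.67 in wild-type against 6.49, 6.24 and 6.71 in knockout, a difference of 0.97 (SE 0.18, limma adjusted p = 0.0573). It passed with the replicate number as a block (limma adjusted p = 0.0335), and again when wild-type replicate 1 was left out (0.84, limma adjusted p = 0.0317). Clec4e read 5.99, 6.28 and 6.26 in wild-type against 6.62, 6.92 and 6.89 in knockout. Its groups also did not overlap, and the difference was 0.63 (SE 0.15, limma adjusted p = 0.094). These 2 genes are neighbours on chromosome 6 and were the only members of the cluster with a mean over 6 arrays above the median of all rows. For Clec4d this held through the knockout arrays, as its wild-type mean was 5.51.

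The remaining 7 genes of the Dectin-2 cluster were dim. Clec4b1, which encodes the activating receptor DCAR, had the lowest difference, -0.54 (SE 0.45, limma adjusted p = 0.457). It read 4.61 in wild-type replicate 1 and 2.65 and 3.04 in the other wild-type arrays, against 3.16, 2.70 and 2.84 in knockout. Without wild-type replicate 1 its difference was 0.05, so its sign rested on that array. Clec4a1, Clec4a2, Clec4a3 and Clec4a4 of the DCIR group, together with Clec4b2 and the α-mannan receptor gene Clec4n (Dectin-2), had differences from -0.42 to 0.05. Limma adjusted p ran from 0.215 to 0.835 in these 6 genes, and their single values ran from 2.86 to 5.38.

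Among the 3 genes of sugar-binding endocytic receptors 0 passed. Clec10a, which encodes the galactose-type receptor MGL1 of macrophages and dendritic cells, read 4.21, 3.74 and 3.90 in wild-type against 5.08, 5.11 and 4.43 in knockout. The groups did not overlap, and the difference was 0.92 (SE 0.22, limma adjusted p = 0.0906). It passed when the replicate number was a block (limma adjusted p = 0.0488), and also without wild-type replicate 1 (1.05, limma adjusted p = 0.0423), but neither group is shown to lie above background. The wild-type mean of 3.95 was below the median of olfactory receptor genes (4.05), and the knockout mean of 4.87 was below their 95th percentile (5.43), so the size of the difference is not interpreted. Clec4f, a Kupffer cell receptor gene, read 6.43, 5.89 and 6.02 in wild-type against 5.66, 5.70 and 6.00 in knockout. Its difference was -0.32 (limma adjusted p = 0.315), and the groups overlapped. Clec4g, a gene of liver sinusoidal endothelium, read 6.36, 5.91 and 5.76 in wild-type against 5.45, 5.73 and 5.69 in knockout, and these groups did not overlap. Its difference of -0.39 did not pass (limma adjusted p = 0.261), and the dimmer row of Clec4g ranged from 4.16 to 4.68.

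With the replicate block, 4 Clec genes were higher (Clec12a, Clec5a, Clec4d and Clec10a) and 0 lower, where 1.41% of all genes were higher and 0.451% lower. The same 4 genes were higher without wild-type replicate 1, again with 0 lower, where 3.28% of all genes were higher and 1.38% lower. In all, 5 Clec genes had 3 knockout values above the 3 wild-type values and 3 had them below. The 5 were Clec12a, Clec5a, Clec4d, Clec4e and Clec10a, and the 3 were Clec1a, Clec12b and Clec4g. Of all genes, 19.2% were separated upward and 15.4% downward, so 5 and 3 of 33 do not stand above the background share.

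The Clec2 family encodes ligands of natural killer cell receptors of the Klrb1 family, and 0 of its 8 measured genes passed. Clec2d, the ligand Clr-b that many blood cells display, had the brightest row of the Clec genes. It read 9.07, 9.52 and 10.01 in wild-type against 9.80, 9.71 and 9.82 in knockout. The knockout values fell within the wild-type range, and the difference was 0.24 (SE 0.23, limma adjusted p = 0.508). It was 0.01 without wild-type replicate 1, and -0.04 under quantile and -0.10 under cyclic loess normalization, so no direction is given. Clec2i, which encodes the ligand Clr-g, read 5.72, 4.84 and 5.53 in wild-type against 6.17, 6.16 and 5.64 in knockout, a difference of 0.63 (SE 0.25, limma adjusted p = 0.209). Clec2h, which encodes the ligand Clr-f, had the lowest value of the family at -0.43 (limma adjusted p = 0.299), or -0.16 without wild-type replicate 1. It read 5.84, 5.06 and 5.02 in wild-type against 4.73, 4.83 and 5.06 in knockout. Clec2e, Clec2g, Clec2l, Clec2m and the pseudogene Clec2j lay between -0.28 and 0.21, and their single values ran from 3.09 to 5.67. Clec2f was not analysed here.

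Secreted, endothelial and other Clec genes included 3 of the 9 brighter members, and 0 of 6 passed. Clec11a, a secreted growth factor gene also called stem cell growth factor, read 6.13, 6.62 and 6.23 in wild-type against 6.45, 6.86 and 6.97 in knockout. The groups overlapped, and the difference was 0.43 (SE 0.20, limma adjusted p = 0.242). Clec16a, whose product acts in endosomal and mitochondrial turnover, read 6.27, 7.43 and 6.89 in wild-type against 6.67, 6.75 and 6.81 in knockout. The knockout values were tight and lay inside the wild-type range. The difference of -0.12 was -0.41 without wild-type replicate 1 and 0.16 without wild-type replicate 2. Clec18a read 6.58, 6.42 and 6.43 in wild-type against 6.24, 6.45 and 6.36 in knockout (difference -0.12, SE 0.13). Its 95% interval ran from -0.43 to 0.19, and the value was 0.02 with arrays centred on their medians. Clec3b, the gene of the plasminogen-binding protein tetranectin, read 5.87, 5.27 and 5.09 in wild-type against 5.29, 5.27 and 5.22 in knockout. Its difference of -0.15 turned to 0.08 without wild-type replicate 1. The cartilage gene Clec3a and the endothelial gene Clec14a differed by -0.09 and -0.13.

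**Figure D3:**
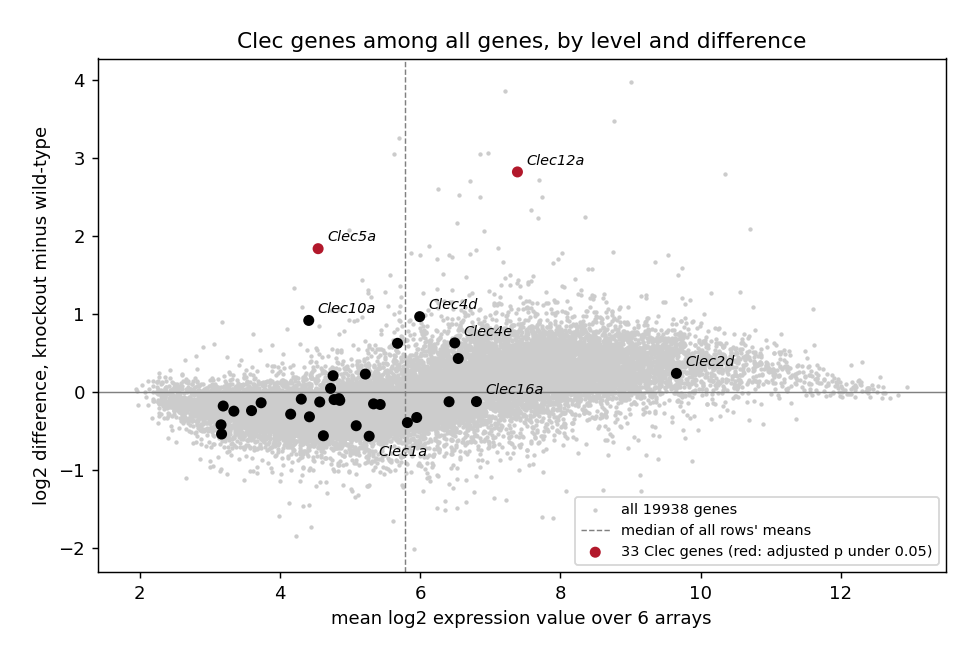
Mean log2 expression value over 6 arrays (horizontal axis) against the log2 difference, knockout minus wild-type (vertical axis), for 19938 genes in grey and the 33 Clec genes in black or, with adjusted p under 0.05, red. The grey points lie lower on the left and higher on the right of the dashed median line, and Clec12a, Clec5a and Clec10a lie above the bulk of genes of like level.

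Position along chromosome 6 was taken from the RefSeq gene order, and the stretches were chosen after the values were seen. From Clec2d to Klrk1 all 15 protein-coding genes were measured and 2 passed. The order began with Clec2d, Cd69, Clec2m, Clec12a and Clec12b. Cd69, which encodes a C-type lectin of activated leukocytes, read 5.22, 5.70 and 5.81 in wild-type against 7.11, 6.93 and 6.67 in knockout. It rose by 1.33 (SE 0.20, limma adjusted p = 0.0346). Clec2m, between Cd69 and Clec12a, had a difference of -0.24, and Clec12b, on the other side of Clec12a, of -0.56. Neither passed, and without wild-type replicate 1 the values were -0.08 and -0.31. Both rows are dim, with wild-type means of 3.47 and 4.90. Of the 9133 genes at or below the median of all rows, 7903 had a negative difference. The median over the 15 genes was -0.09. In the Dectin-2 cluster the 9 genes from Clec4a1 to Clec4e had a median of -0.18, and the 2 highest differences were those at one end, Clec4d and Clec4e.

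**Figure D4:**
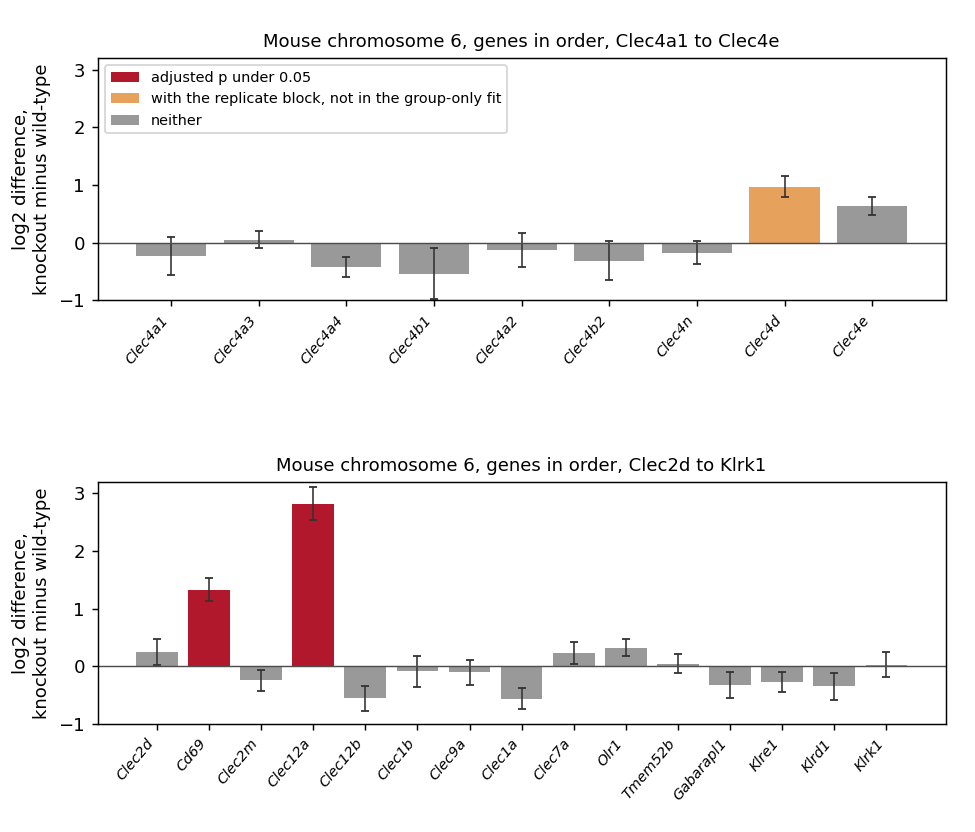
Log2 difference, knockout minus wild-type, of genes in their order along chromosome 6, for the Dectin-2 cluster (upper panel, 9 genes) and the stretch from Clec2d to Klrk1 (lower panel, 15 genes). Bars show the difference and lines its SE from limma. Red bars (Cd69 at 1.33 and Clec12a at 2.82) passed the test. The orange bar (Clec4d) passed with the replicate block but not in the fit of group alone. The genes directly beside Clec12a, Clec2m and Clec12b, are dim and did not pass.

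The promoters of Clec genes were searched for letters bound by 3 kinds of factor, since Clec12a and Clec5a rose together. RefSeq promoters (build GRCm38.p6) were found for 26 of the 33 genes, with 29 start sites. The 250 bases before each start were read on both strands. The C/EBP letters TTGCNNAA occurred in 4 of 29 Clec promoters (13.8%) and in 9.56% of all 32851 promoters. Those 4 belong to Clec12a, Clec4e, Clec11a and Clec16a. The κB letters GGNNNTTCC, a loose form of the NF-κB site, occurred in 4 of 29 (13.8%), those of Clec12b, Clec2l and both starts of Clec4a3, against 15.7% of all promoters. The PU.1 letters GAGGAAGT occurred in 0 of 29 and in 2.44% of all. A match of letters is not a site of binding, and none of the matches of different motifs shared a promoter. The 4 windows shown are those of the 2 genes that rose, of Clec4e as another receptor gene with C/EBP letters, and of Clec12b as the neighbour of Clec12a. They run 5′ to 3′ on the gene's strand with any match in capitals. In Clec12a (chr6:129349994-129350243, plus strand) the match starts 140 bases before the transcript start and reads the same on both strands. Clec4e (chr6:123289872-123290121, minus strand) has its C/EBP letters, on the opposite strand, 66 bases before the start. Clec12b (chr6:129385504-129385753, minus strand) has κB letters, also on the opposite strand, 51 bases before the start. Clec5a (chr6:40585806-40586055, minus strand) has no match.
Clec12a: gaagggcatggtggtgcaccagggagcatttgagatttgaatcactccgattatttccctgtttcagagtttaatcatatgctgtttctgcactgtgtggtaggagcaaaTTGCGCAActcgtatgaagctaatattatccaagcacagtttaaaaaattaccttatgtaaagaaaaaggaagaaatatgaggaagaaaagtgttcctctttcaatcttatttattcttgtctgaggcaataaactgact
Clec5a: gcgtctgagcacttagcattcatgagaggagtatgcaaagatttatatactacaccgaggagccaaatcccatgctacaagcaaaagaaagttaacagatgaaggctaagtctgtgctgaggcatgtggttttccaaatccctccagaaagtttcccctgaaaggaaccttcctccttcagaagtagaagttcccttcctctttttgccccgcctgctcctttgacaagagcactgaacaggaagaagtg
Clec4e: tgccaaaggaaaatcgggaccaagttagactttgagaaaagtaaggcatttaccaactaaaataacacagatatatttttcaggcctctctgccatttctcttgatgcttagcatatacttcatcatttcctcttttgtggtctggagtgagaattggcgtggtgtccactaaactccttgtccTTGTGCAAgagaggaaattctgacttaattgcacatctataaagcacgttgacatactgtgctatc
Clec12b: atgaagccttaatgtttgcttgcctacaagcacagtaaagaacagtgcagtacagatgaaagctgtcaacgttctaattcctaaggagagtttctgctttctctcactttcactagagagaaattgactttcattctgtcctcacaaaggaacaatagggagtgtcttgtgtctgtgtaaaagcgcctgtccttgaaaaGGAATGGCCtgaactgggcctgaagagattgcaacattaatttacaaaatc

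Of 15 measured genes of Clec receptor signalling, 1 rose, 0 fell and 14 did not pass. The median difference was 0.35, or 0.12 without wild-type replicate 1, and all 15 had signals above the median of all rows. The gene that rose was Tyrobp, which encodes DAP12, the adaptor of MDL-1. It read 8.92, 8.65 and 9.07 in wild-type against 10.05, 10.25 and 9.82 in knockout, a rise of 1.16 (SE 0.17, limma adjusted p = 0.035). Fcer1g, which encodes FcRγ, the adaptor of Mincle, MCL and Dectin-2, read 9.05, 9.15 and 9.35 in wild-type against 9.80, 9.90 and 9.77 in knockout. Its difference was 0.64 (SE 0.14, limma adjusted p = 0.0793), and it passed without wild-type replicate 1 (0.57, limma adjusted p = 0.0384). Card9 had a difference of 1.14 (SE 0.25) and passed with the replicate block (limma adjusted p = 0.0366) but not without it (0.0817). Without wild-type replicate 1 it did not pass either (0.99, limma adjusted p = 0.0729). The wild-type mean of Card9, 5.68, lay below the median of all rows (5.79), and its knockout mean was 6.82. The kinase gene Syk differed by 0.24 (limma adjusted p = 0.526), and the SHP-1 gene Ptpn6 by 0.21 (limma adjusted p = 0.395). Fcer1g, Card9, Syk and Ptpn6 were named for their roles after their values were seen.

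Of 60 measured genes with a C-type lectin domain but another name, such as the Klr receptors, selectins and collectins, 1 rose, Cd69, and 0 fell. Their median difference was -0.20, or -0.08 without wild-type replicate 1, and 9 of the 60 were above the median of all rows. Of 8 partner genes of Clec proteins, among them the podoplanin gene Pdpn and the Klrb1 receptors, 0 passed. The lowest p belonged to Itga11, which encodes a Clec11a receptor chain (difference -0.26, limma adjusted p = 0.284), and Klrb1c (-0.31, limma adjusted p = 0.329). At an unadjusted limma p under 0.05, 0 of the 8 were found.

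Markers of other cells were read beside the Clec genes, and fewer cells of a type cannot be told apart from less RNA per cell in these samples. Of 13 markers of granulocyte and monocyte progenitors 12 rose and 0 fell, with a median difference of 2.09, and the mean level of the list was 7.22 to 7.29 in wild-type and 9.16 to 9.62 in knockout arrays. Elane, the neutrophil elastase gene, rose by 3.98, Ctsg, the cathepsin G gene, by 2.80, Ly86, which encodes the receptor partner MD-1, by 3.07, and Ms4a3 by 3.48. On the mean of 6 arrays all 13 were above the median of all rows (5.79). For Ly86, F13a1, Csf1r and Ccr2 this held through the knockout arrays, as their wild-type means were 5.43, 5.61, 5.38 and 5.29. The last 3 are named after their values were seen. These wild-type means lay below the 95th percentile of olfactory receptor genes (5.95), so the size of the rise of Ly86 is uncertain. The part of these progenitors in the rise of Clec12a and Clec5a was not tested. Of 17 markers of mature macrophages and granulocytes 0 passed (2 were higher and 2 lower at an unadjusted limma p under 0.05), with a median of -0.11 and list means of 5.31 to 5.76 in wild-type and 5.47 to 5.50 in knockout. The lowest p were those of Cxcr2 (1.14, limma adjusted p = 0.0531) and Cd68 (1.22, 0.0622), and both passed under the block (0.0211 and 0.0151) and when wild-type replicate 1 was left out. Of 9 dendritic cell markers 0 passed (1 higher and 0 lower unadjusted), with a median of -0.32 and list means of 5.62 to 6.10 in wild-type and 5.56 to 5.68 in knockout. The lowest p were those of Cst3 (0.55, limma adjusted p = 0.124) and Cd209a (-0.54, 0.239).

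Platelet and endothelial markers were read beside Clec1b, Clec1a and Clec14a. Of 9 measured megakaryocyte and platelet markers 0 passed (0 higher and 2 lower unadjusted, median -0.04), and the list means overlapped, from 7.94 to 8.57 in wild-type and 7.90 to 8.34 in knockout. Ppbp (-1.61, limma adjusted p = 0.229) passed without wild-type replicate 1, at -2.57, and Treml1 differed by -0.39 (0.231). Of 12 endothelial markers 0 passed (0 higher and 4 lower unadjusted, median -0.29), while 4 were lower under the block and 3 without wild-type replicate 1. Their list mean was 6.72 to 7.01 in wild-type and 6.31 to 6.50 in knockout, with Esam at -0.91 (limma adjusted p = 0.0535) and Tie1 at -0.93 (0.0576). The 4 lower under the block were Esam, Tie1, Robo4 and Emcn, with wild-type means from 6.55 to 8.02. The dim members Cdh5, Kdr and Stab2 had wild-type means of 4.98, 5.10 and 5.47 and differed by -0.25, -0.14 and -0.34. Robo4, Emcn and these dim members are named after their values were seen. Which cells gave these signals was not tested, nor was the part of these markers in the value of Clec1a. Of 9 stroma and bone markers 0 passed (0 unadjusted in either direction, median -0.11, list means 5.24 to 5.43 and 5.22 to 5.23), with Cxcl12 at -0.26 and Col1a2 at -0.19. Of 9 lymphocyte and NK markers 1 rose, Nkg7 (1.09, limma adjusted p = 0.0483), and 0 fell (1 higher and 2 lower unadjusted, median -0.21, list means 5.56 to 6.05 and 5.49 to 5.63). Cd3d, named after its values were seen, was lower without wild-type replicate 1 (-0.55, limma adjusted p = 0.0492). Of 7 stem and progenitor cell genes 1 fell, Hlf (-1.27, limma adjusted p = 0.0485), and 0 rose. Lower genes of this list numbered 2 under the block and 4 when wild-type replicate 1 was left out. All 7 were above the median of all rows, including Flt3, which encodes Flk2, the surface protein the gate excludes (7.31 to 8.08 in wild-type and 7.39 to 7.94 in knockout).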

How the data were processed

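Single arrays from 3 wild-type and 3 p65 knockout samples were compared. The values are on the log2 scale as deposited by the authors, in 1 table made with RMA, Affymetrix Expression Console and Partek per the submitters' processing notes, which name no versions. RMA is meant to correct background, equalise array distributions and combine probes into rows. The deposited arrays still differed, with medians from 5.72 to 5.98 and SDs over all rows from 2.03 to 2.29. The design text names an exon array and another tool, whereas the row annotation used here is for a Mouse Gene ST array. RNA was amplified before labelling, per the labels' protocols, which can change signal range.

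Of 35557 rows, 21789 had 1 gene symbol, 1621 several and 12147 none listed. Keeping the brightest row of the 999 genes with more than 1 row left 19938 genes. All 33 Clec genes matched the RefSeq gene table by identifier. Knockout and wild-type were compared in limma 3.58.1 (R 4.3.3) fitting genotype alone (residual degrees of freedom 4). Tests were two-sided, and p-values were adjusted by Benjamini-Hochberg across the 19938 genes, with 0.05 as threshold. The procedure was tested on simulated data. The titles number the replicates but do not say whether each is a separate mouse, so the replicates were treated as independent without proof from the labels.

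Same-numbered arrays deviated together from their group means (correlations 0.368, 0.119 and 0.162, minimum 0.1), although arrays of different number reached 0.195. The block is therefore given where it changes a call. The members, lists and motifs were chosen with earlier results of these data known. Values in every array are given for Clec genes that passed in any of the group, block or left-out-array fits, lay above the median of all rows, or were the highest or lowest of their role group. From each list up to 4 passing genes with the lowest p are named, or 2 where none passed. The 14 alternatives were the block, 3 scalings, a filter on dim genes, an intensity trend, array weights, averaged rows and each array left out.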

Additional observations from a re-analysis of the deposited data

How the results depend on the processing

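No Clec gene was lower under any of the 14 alternatives, and the count of Clec genes above the median of all rows, 9, was 8 to 10 under the 8 alternatives that could change it. The count of higher Clec genes was 2 under quantile normalization, median centring, the dim-gene filter (Clec12a and Clec4d), the intensity trend and averaged rows. It was 4 with the replicate block, 4 with cyclic loess normalization and 5 with array weights (Clec4e added). Clec4d passed the dim-gene filter only through its knockout arrays (mean 6.48), as its wild-type mean of 5.51 lay below the median of 5.79. Its call under that filter was thus selected by the difference itself and adds no support. Leaving out 1 array gave 0 to 4, with 4 only without wild-type replicate 1 and 0 without wild-type replicate 3, knockout replicate 1 or knockout replicate 2. Such fits have fewer samples. Of all genes, 137 were higher and 26 lower. Higher genes numbered 282 with the block, 86 with quantile normalization, 484 among the 10805 genes above the median, 1117 with array weights, and 21 to 653 with 1 array left out. Lower genes numbered 90 with the block, 6 with median centring (which adds 0.146 to every difference), 98 with cyclic loess, 62 above the median, 482 with array weights, and 0 to 276 with 1 array left out. The cause of these changes was not tested.

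The sign turned under at least 1 alternative in 16 of the 33 Clec genes, and 0 of these 16 passed under any alternative. They include 11 dim genes given only by range or difference (Clec1b, Clec2j, Clec2l, Clec3a, Clec4a1, Clec4a2, Clec4a3, Clec4b2, Clec4n, Clec9a and Clec14a). The other 5 were as follows. Clec2d was -0.042 with quantile normalization, -0.10 with cyclic loess and -0.016 with array weights. Clec3b was 0.014, 0.038 and 0.064 under the same 3 settings, and ran from -0.307 to 0.079 with 1 array left out. Clec16a was 0.027 and Clec18a 0.025 with median centring. With 1 array left out, Clec16a ran from -0.414 to 0.163 and Clec4b1 from -0.926 to 0.053, the positive values coming without wild-type replicate 2 and without wild-type replicate 1. Clec12a passed in 11 of 14 alternatives, Clec5a in 8 of 13, Clec4d in 5 of 14 and Clec10a in 4 of 13. The 5 of Clec4d include the dim-gene filter, which it entered only through its knockout arrays. Dim signal limits Clec5a and Clec10a, which lie below the median of all rows.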
